A study of Mus musculus with 6 samples.

Results

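Iron storage and iron-sulfur cluster assembly were followed through 8 genes in interscapular brown fat of control and cold-exposed mice. The 8 genes were listed by name: the ferritin subunit genes Fth1 and Ftl1, the transferrin receptor gene Tfrc, and the assembly genes Nfs1, Iscu, Isca1, Isca2 and Glrx5. For each gene and library, the reads of both flow cells and of all transcripts that GENCODE M21 gives the gene were added up. Of the 8 genes, 7 had reads, and all 7 passed the filter on low counts, among 8129 genes with reads and 2093 tested in all. In the cold Fth1 fell to 0.629 of its control level, Ftl1 rose 1.83-fold, Isca1 rose 1.95-fold and Isca2 rose 2.05-fold. Iscu, Nfs1 and Glrx5 were not called, and Tfrc had 0 reads in every library.

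The study sequenced poly(A) RNA of brown fat as full-length cDNA on nanopore flow cells, with a kit that selects capped molecules. All mice were wild type C57BL/6N males aged 20 weeks. The 3 cold mice spent 24 h at 4 °C in single cages. The treatment text stands on all 6 records, so the 3 control mice are known as controls only from their titles and treatment tag. For these only the husbandry range of 22 to 24 °C is given, and no label states how they were caged, so cold and single housing cannot be told apart. Each library came from 1 mouse with its own number, and libraries are named here by group and mouse number.

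Matched reads per library numbered 1014812 to 1849351 in the control group and 2922939 to 2982630 in the cold group, so that depth differed between the groups and cannot be told apart from them in the counts as deposited. The RNA extraction text names eWAT, a white fat depot, whereas the tissue label gives the interscapular brown depot. Ucp1, the uncoupling protein of brown fat, averaged 4503 ± 333 CPM in control mice and 4114 ± 44.8 in cold mice (mean ± SD, n = 3 each, as for all levels below). Of 9 brown fat markers 7 were tested, and Cox8b and Adipoq fell, by 0.98 and 0.88 on the log2 scale (adjusted p = 0.0128 and 0.00220), while Ucp1 and the other 4 were not called. Of 4 white fat markers only Retn was tested, and it rose from 91.7 ± 25.5 to 192 ± 53.7 CPM (log2 change 1.07 ± 0.27, adjusted p = 0.0121). Leptin and Agt had 1 read each in all. Nnat, also not tested, had 1, 1 and 0 reads in control and 8, 51 and 5 in cold libraries. The part of these marker changes in the results below was not tested. CPM are read counts relative to the library total, on the usual scale of edgeR, after scaling of libraries by the trimmed mean of M-values. Over all tested genes 33.2% were called at an adjusted p under 0.05 by edgeR's quasi-likelihood test, 18.1% higher and 15.1% lower in the cold, and the median log2 change was 0.04. Each change is the log2 ratio of cold to control, written ± SE, and every adjusted p of a gene or transcript is a Benjamini-Hochberg value of that test over all genes or all transcripts. Transcripts of at least 4000 bases held 1.98 to 2.07% of reads in control and 3.42 to 3.64% in cold libraries, without overlap, so the share of long transcripts moved with the groups, and its part in the changes of the listed genes was not tested. In whole tissue, fewer cells of a type and less RNA per cell cannot be told apart.

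Ferritin is a hollow protein shell of heavy and light subunits that keeps iron in a soluble, non-reactive form. The heavy subunit oxidises ferrous iron on its way in, and the light subunit favours its deposition in the core. Cells take up transferrin-bound iron through the transferrin receptor. In mitochondria, iron and sulfur taken from cysteine are joined into iron-sulfur clusters on a scaffold protein and handed to carriers that insert them into enzymes, among them subunits of the respiratory chain, which brown fat holds in quantity. Messengers of both ferritin subunits carry an iron-responsive element before the coding sequence, a hairpin that iron regulatory proteins bind to hold back translation when iron is low. The messenger of the transferrin receptor carries such hairpins behind its coding sequence, where binding protects it from decay.

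The ferritin hairpins are shown because reads on messengers that hold them moved in opposite directions in the cold. They are printed 5′ to 3′ as 30 bases of the GENCODE M21 transcripts, with the first bases of the loop, CAGTG, in capitals.
Fth1: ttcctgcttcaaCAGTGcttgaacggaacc
Ftl1: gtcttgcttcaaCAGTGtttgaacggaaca
The loop began at base 99 of Fth1-201 and at base 90 of Ftl1-201, and the coding sequence at bases 225 and 254. Counted from the first printed base, Fth1 to Ftl1, the ferritin windows differed at T1G, C4T, C18T and C30A, 4 of 30 positions. The search asked for a bulged C, then 5 bases, the loop CAGTGN and 5 bases that pair with the first 5, G with T pairs allowed. Among 58797 protein_coding transcripts it matched 565 (0.961%), and 49 (0.0833%) within the first 200 bases. Transcripts with the ferritin element held 99.5 to 99.7% of the Fth1 reads and at least 99.8% of the Ftl1 reads in each library. Nearly all reads of both genes therefore lay on annotated transcripts with the hairpin, in control and cold libraries alike. Among these is Fth1-203, with 25049 reads, where the loop began at base 670 and the coding sequence at base 796. Its hairpin thus lies outside the first 200 bases. Ftl1-202, annotated nonsense_mediated_decay, is also among them, with 22346 reads and the loop at base 45.

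Fth1 (ENSMUSG00000024661, GRCm38 chromosome 19, 9980598 to 9985098, plus strand) encodes the heavy ferritin subunit. It had 17214, 8531 and 16045 reads in control replicates 2, 9 and 14, and 17238, 18095 and 17163 in cold replicates 4, 11 and 15. On the CPM scale these were 9276, 8734 and 9591 in control and 5764, 5967 and 5633 in cold libraries. All cold values lay below all control values, and the groups were far apart compared with their spread. The mean fell from 9200 ± 434 to 5788 ± 168 CPM, a log2 change of -0.67 ± 0.12 (95% interval -0.94 to -0.40, adjusted p = 0.00202). As a ratio the cold level was 0.629 of control, with a 95% interval of 0.522 to 0.759.

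Ftl1 (ENSMUSG00000050708, chromosome 7, 45457944 to 45459884, minus strand) encodes the light ferritin subunit. Its reads numbered 4544, 1622 and 2911 in control and 9865, 9170 and 13425 in cold libraries, in the same order of mice. These gave 2448, 1661 and 1740 CPM in control and 3299, 3024 and 4406 CPM in cold libraries. Control 2 was the highest of its group and cold 15 the highest of all, and the groups did not overlap. The mean rose from 1950 ± 434 to 3576 ± 732 CPM (log2 change 0.87 ± 0.20, 95% interval 0.44 to 1.31, adjusted p = 0.00656). The ratio was 1.83, with a 95% interval of 1.35 to 2.48. Without cold 15, in which skeletal muscle and macrophage markers were also highest, the log2 change was 0.70 (adjusted p = 0.0276).

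Near-identical copies limit the level of Ftl1. Ftl1-ps1, annotated in GENCODE M21 as protein_coding, matched Ftl1-202 at 97.3% over 930 aligned bases and held 11074 reads against 41537 on Ftl1. Its own level rose from 507 ± 84.6 to 961 ± 188 CPM (log2 change 0.92 ± 0.20, adjusted p = 0.00519). Its messenger carries the same 30-base window as Ftl1. Reads could be split between the copies by the authors' counting, so the genes were also summed, an alternative chosen after the data were seen. The summed light-subunit reads changed by 0.89 on the log2 scale (adjusted p = 0.00519), so the call did not rest on the split.

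**Figure D1:**
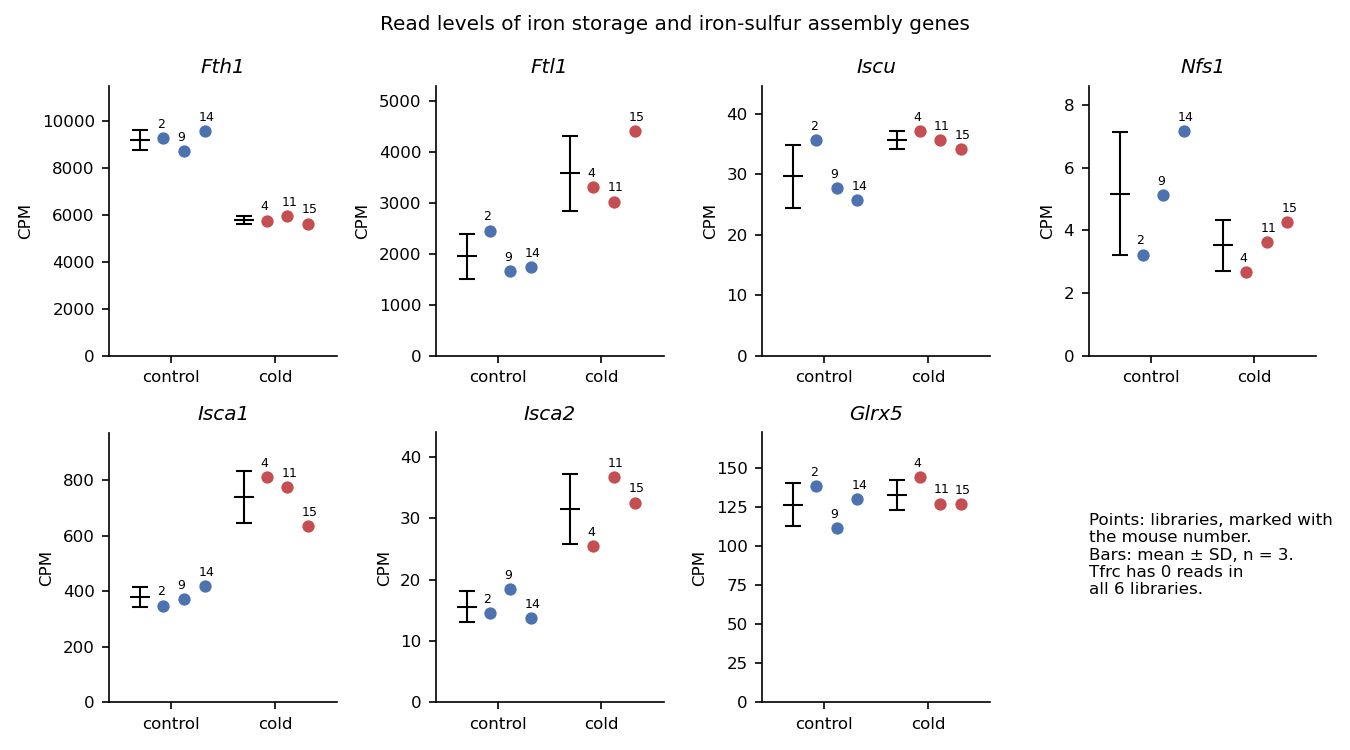
Normalised read counts (CPM, linear axes from 0) of the 7 listed genes with reads, by group; points are single libraries marked with the mouse number, and bars give mean ± SD of n = 3. Control and cold points do not overlap for Fth1, Ftl1, Isca1 and Isca2, and they overlap for Iscu, Nfs1 and Glrx5.

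The make-up of ferritin messengers was also compared within each library, a quantity that does not depend on scaling between libraries. Fth1 held 79.1, 84.0 and 84.6% of Fth1 and Ftl1 reads in control replicates 2, 9 and 14, and 63.6, 66.4 and 56.1% in cold replicates 4, 11 and 15. The lowest control share was above the highest cold share, with cold 15 lowest. The mean share was 82.6 ± 3.03% in control and 62.0 ± 5.31% in cold libraries, a difference of -20.6 percentage points. An exact two-sided permutation test over the 20 arrangements of the labels gave p = 0.1, the smallest this design allows. In terms of reads, Fth1 outnumbered Ftl1 by 4.85 to 1 in control and by 1.67 to 1 in cold libraries, as group means of the ratio.

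Other ways of counting kept the difference between -22.7 and -13.5 points. With transcripts annotated protein_coding alone it was the smallest, from 91.2 to 77.7%, since this leaves out Ftl1-202. With Ftl1-ps1 added to Ftl1 the share went from 79.0 to 56.3%, and per kilobase of transcript from 81.4 to 60.1%. Leaving out 1 library gave -22.7 to -17.6 points, the latter without cold 15. Fth1 and Ftl1 together stood at 11724, 10394 and 11331 CPM in control and 9063, 8990 and 10038 CPM in cold libraries. The summed level of Fth1 and Ftl1 was thus 11150 ± 683 against 9364 ± 585 CPM, without overlap (exact two-sided permutation p = 0.1). This sum was formed after the data were seen. It leaves out Ftl1-ps1, which averaged 507 ± 84.6 CPM in control and 961 ± 188 CPM in cold libraries. Adding that copy narrows the gap, so the lack of overlap is stated for Fth1 and Ftl1 alone.

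**Figure D2:**
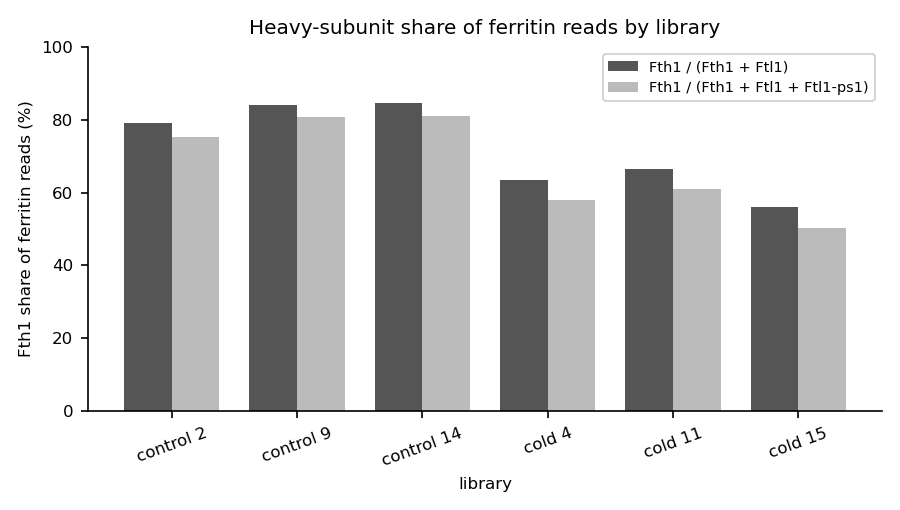
Share of Fth1 among ferritin reads (percent of reads, axis 0 to 100) in each of the 6 libraries, against Ftl1 alone (dark bars) and against Ftl1 and Ftl1-ps1 together (light bars). Dark bars run from 79.1 to 84.6% in control and from 56.1 to 66.4% in cold libraries, and the light bars are lower in every library.

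Macrophages, which recycle iron and hold much ferritin, and red cell precursors are other cells that a fat depot can hold. Of 10 macrophage markers, Adgre1, Cd68, Cd163, Csf1r and Mrc1 had 0 reads in all libraries. The 10 together summed to 73.3, 90.1 and 56.8 CPM in control and 59.5, 54.4 and 123 CPM in cold libraries, highest in cold 15. These sums were mostly C1qa, the 1 marker that was tested and not called (log2 change 0.23, adjusted p = 0.628). Of 6 fibroblast markers, Col1a1, Col3a1 and Pdgfra also had 0 reads, while Dcn had 191 reads in all. A count of 0 for a marker thus does not show that its cell type was absent. Red blood cell markers summed to 14921 to 28028 CPM in control and 16265 to 22436 CPM in cold libraries, with 0 of 4 tested called and with Slc4a1 at 0 reads. These are globin messengers almost alone, and their ranges overlapped between the groups. Skeletal muscle markers summed to 109, 504 and 876 CPM in control and 168, 2637 and 11781 CPM in cold libraries, with 0 of 5 tested called. Muscle markers were thus highest in cold 15 and cold 11, and the part of muscle and macrophage markers in the changes of the listed genes was not tested. Fth1, Isca1 and Isca2 kept their calls without cold 15, at log2 changes of -0.64, 1.07 and 1.02 (adjusted p = 0.0123, 0.00255 and 0.0247).

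Both ferritin genes were read mostly as 2 annotated transcripts each. Fth1-201 held 72.7 ± 1.24% of Fth1 reads in control and 72.7 ± 0.42% in cold libraries, and Fth1-203 held 26.5 ± 1.17 and 26.7 ± 0.27%. Fth1-203 has the same 546 coding bases as Fth1-201 and 571 further bases upstream, with 5 exons in place of 4. Both fell, by 0.67 and 0.66 on the log2 scale (adjusted p = 0.00246 and 0.00409). The retained-intron transcripts Fth1-207 and Fth1-208, of 12.6 to 35.0 CPM as group means, also fell, by 1.06 and 0.96 on that scale (adjusted p = 0.0150 and 0.0236). The 2 main Fth1 transcripts kept their shares within the spread between libraries.

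Ftl1 reads were split between Ftl1-201 and Ftl1-202, at 45.0 ± 1.5 and 54.8 ± 1.53% in control and 46.3 ± 0.61 and 53.6 ± 0.56% in cold libraries. Ftl1-202 is annotated nonsense_mediated_decay, a class for messengers with an early stop codon. It differs from Ftl1-201 inside the gene by 21 added bases before the third exon (chromosome 7, 45458661 to 45458681). The junction is shown because more than 50% of Ftl1 reads were assigned to Ftl1-202 in every library. The added bases are in capitals, with 12 bases of flank on each side.
Ftl1-202: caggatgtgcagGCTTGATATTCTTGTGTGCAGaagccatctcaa
The stop codon TGA begins at base 4 of the insert, after 84 codons, where Ftl1-201 has 183. Ftl1-201 rose by 0.90 and Ftl1-202 by 0.85 on the log2 scale (adjusted p = 0.00640 and 0.00555). How a read was assigned between transcripts that differ by so short a stretch was not given in sources used here, so the split itself is less certain than the sum.

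Tfrc (ENSMUSG00000022797, chromosome 16, 32608920 to 32632794, plus strand) encodes the transferrin receptor. It had 0 reads on its 7 annotated transcripts in all 6 libraries. A count of 0 allows up to 3 reads, which is 1.62 to 2.96 CPM in control and 1.01 to 1.03 CPM in cold libraries before scaling. A lower level was not detectable at this depth, and no comparison of Tfrc between the groups can be made. Its full-length transcript Tfrc-201 has 4890 bases, within the class of at least 4000 bases described above. Tfrc-201 matched the hairpin search 4 times, with loops at bases 3327, 3706, 3771 and 3818, behind the coding sequence.

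Nfs1 (ENSMUSG00000027618, chromosome 2, 156123639 to 156144186, minus strand) encodes the cysteine desulfurase that supplies the sulfur. It had 6, 5 and 12 reads in control and 8, 11 and 13 in cold libraries, or 3.23, 5.12 and 7.17 against 2.68, 3.63 and 4.27 CPM. The ranges overlapped, with control 14 highest. Means of 5.17 ± 1.97 and 3.52 ± 0.801 CPM gave a log2 change of -0.53 ± 0.43 (95% interval -1.48 to 0.41, adjusted p = 0.363). The interval reaches from a fall past 1 to a rise of 0.41 on the log2 scale, so 55 reads in all leave the direction of Nfs1 undecided. Its exons overlap Romo1, a gene of 13633 reads on the opposite strand.

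Iscu (ENSMUSG00000025825, chromosome 5, 113772748 to 113778288, plus strand) encodes the scaffold on which the cluster forms. It had 66, 27 and 43 reads in control and 111, 108 and 104 in cold libraries, or 35.6, 27.6 and 25.7 against 37.1, 35.6 and 34.1 CPM. Control 2 lay among the cold libraries, and the others of its group below them. The mean went from 29.6 ± 5.22 to 35.6 ± 1.49 CPM, and the log2 change of 0.26 ± 0.23 was not called (95% interval -0.25 to 0.76, adjusted p = 0.419). Iscu-201 held 69.2 ± 5.25% of its reads in control and 63.8 ± 2.33% in cold libraries, and Iscu-203, with 627 coding bases in place of 504, held 30.3 ± 4.46 and 35.9 ± 2.70%. These shares overlapped between the groups.

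Isca1 (ENSMUSG00000044792, chromosome 13, 59755409 to 59769810, minus strand) encodes an A-type carrier that, paired with the Isca2 protein, builds the larger clusters of enzymes such as lipoate synthase. It had 647, 364 and 700 reads in control and 2423, 2349 and 1936 in cold libraries. On the CPM scale these were 349, 373 and 418 against 810, 775 and 635. Every cold library was above every control library, with cold 15 the lowest of the cold group. The mean rose from 380 ± 35.5 to 740 ± 92.4 CPM, a log2 change of 0.96 ± 0.18 (95% interval 0.57 to 1.36, adjusted p = 0.00221). The ratio was 1.95, with a 95% interval of 1.48 to 2.56.

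Isca1-201 held 98.0% of Isca1 reads in control and 97.6% in cold libraries. A minor transcript, Isca1-206, annotated nonsense_mediated_decay and with 147 coding bases in place of 387, held 0.77, 0.55 and 0.71% in control and 1.32, 1.06 and 1.5% in cold libraries. Its share was higher in each cold than in each control library, and its level rose by 1.82 ± 0.39 on the log2 scale (adjusted p = 0.00433). Isca1-206 had only 5, 2 and 5 reads in control and 32, 25 and 29 in the deeper cold libraries, so its control shares are uncertain. The test of transcript usage did not call Isca1. A further gene model, AK157302, matched Isca1 at 99.0% over 1914 bases but held 24 reads, against 8419 on Isca1.

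Isca2 (ENSMUSG00000021241, chromosome 12, 84773251 to 84775088, plus strand) encodes the partner carrier. It had 27, 18 and 23 reads in control and 76, 111 and 99 in cold libraries, or 14.5, 18.4 and 13.7 against 25.4, 36.6 and 32.5 CPM. The groups did not overlap. The mean rose from 15.6 ± 2.50 to 31.5 ± 5.66 CPM (log2 change 1.04 ± 0.26, 95% interval 0.46 to 1.61, adjusted p = 0.0109), a ratio of 2.05 with a 95% interval of 1.38 to 3.05. With every library thinned to the smallest total the change was as large, at 1.05, but was no longer called (adjusted p = 0.0512), on 354 reads in all before thinning.

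Promoter stretches of Isca1 and Isca2 are shown because both genes of the carrier pair were higher in the cold. They come from RefSeq (GRCm38.p6), cut to the bases that lie outside every annotated exon, and capitals mark CCAAT or TGACG on either strand, where motifs may touch or overlap.
Isca1: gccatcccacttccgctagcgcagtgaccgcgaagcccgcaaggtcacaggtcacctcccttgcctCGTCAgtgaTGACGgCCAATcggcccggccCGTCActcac
Isca2: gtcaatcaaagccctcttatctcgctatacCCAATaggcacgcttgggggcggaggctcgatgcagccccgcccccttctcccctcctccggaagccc
The Isca1 stretch is chr13:59769859-59769964 on the minus strand and the Isca2 stretch chr12:84773153-84773250 on the plus strand. Isca1 held 1 CCAAT and 3 TGACG in these 106 bases, and Isca2 held 1 CCAAT and 0 TGACG in 98. In the whole 250 bases before the RefSeq start each had 2 CCAAT, as did Ftl1, while Glrx5, which was not called, had 4, the windows of Fth1 had 0 and 1, and Nfs1 had 0. Only Isca1, with 3, had a TGACG among the tested listed genes with a RefSeq window, and 1 window of Tfrc, which was not tested, had 1. A further motif searched, TGACNNNGC, was found 2 times in Isca1 and 2 times in Nfs1, which was not called. Of 32851 RefSeq promoters, 33.8% held a CCAAT, 17.8% a TGACG and 10.2% a TGACNNNGC in 250 bases. The Isca1 and Isca2 windows also overlap the genes Etohd2 and Npc2. A match describes the letters and not a bound site.

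Glrx5 (ENSMUSG00000021102, chromosome 12, 105032688 to 105042906, plus strand) encodes the mitochondrial monothiol glutaredoxin that passes clusters from the scaffold to the carriers. It had 257, 109 and 218 reads in control and 431, 386 and 387 in cold libraries, or 138, 112 and 130 against 144, 127 and 127 CPM. Values of both groups were interleaved. The mean was 127 ± 13.8 CPM in control and 133 ± 9.81 CPM in cold libraries, with a log2 change of 0.06 ± 0.20 (95% interval -0.37 to 0.50, adjusted p = 0.826). The interval lies below that of Isca1, which begins at 0.57, but overlaps that of Isca2, which begins at 0.46. Differences between the genes' changes were not tested.

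Of the 7 tested genes, 3 were called higher and 1 lower, against a background of 18.1 and 15.1% of all tested genes. The groups did not overlap in 4 of the 7, against 47.8% of all tested genes. At the level of transcripts, 29 of the listed genes' transcripts had reads and 13 were tested, of which 5 were higher and 4 lower, where 32.7% of all tested transcripts were called in either direction. Transcript usage could be tested in Fth1, Ftl1, Iscu and Isca1, and 0 of these 4 were called by edgeR, where 1.67% of all 539 genes tested were. For usage over all genes, 9 were called, and 26 had an unadjusted p under 0.05.

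**Figure D3:**
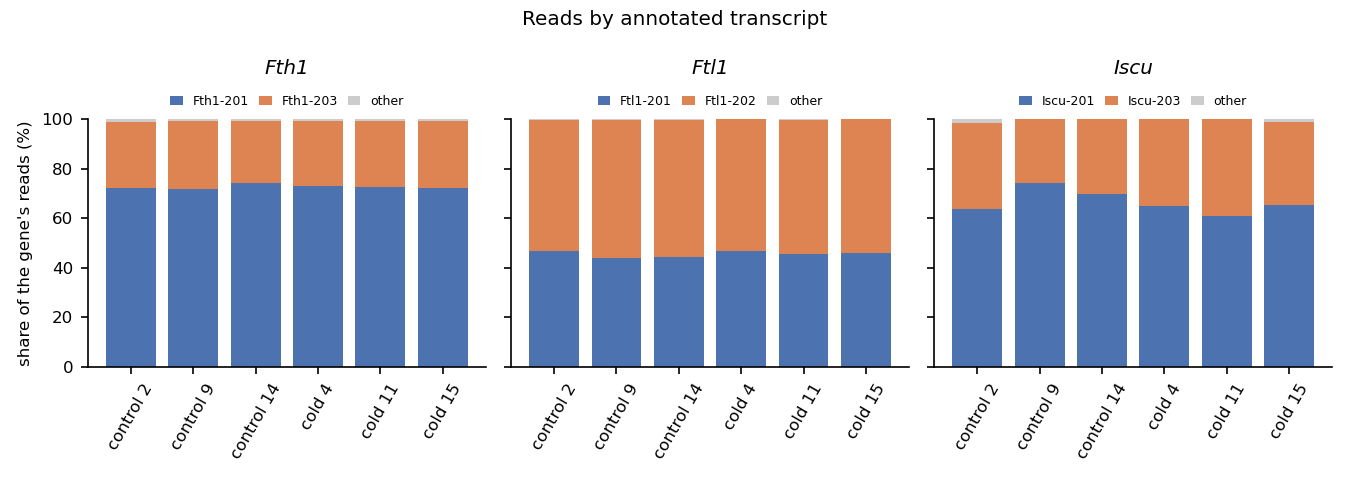
Share of each gene's reads (percent) on its 2 main annotated transcripts and on all others, for Fth1, Ftl1 and Iscu in each of the 6 libraries. The Fth1-201 share averages 72.7% in both groups and the Ftl1-201 share 45.0 and 46.3%, while Iscu varies more from library to library.

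Compared per length, as CPM per kilobase of transcript, the genes spanned more than 3 orders of magnitude. On full-length cDNA reads need not rise with length, so distances between genes depend on this division. Without it Glrx5 and Iscu averaged 127 and 29.6 CPM in control, and the order of the control means was the same. Control levels were 8913 ± 464 for Fth1, 2045 ± 454 for Ftl1, 195 ± 18.3 for Isca1 and 43.7 ± 5.15 for Glrx5. Iscu stood at 29.6 ± 4.95, Isca2 at 17.4 ± 3.09 and Nfs1 at 2.52 ± 0.96 CPM per kilobase. In the control group no library of one gene reached the range of the next in this order. Cold levels were 5601 ± 167 for Fth1, 3748 ± 767 for Ftl1, 379 ± 47.3 for Isca1, 45.6 ± 3.71 for Glrx5, 35.3 ± 1.5 for Iscu, 35.6 ± 6.23 for Isca2 and 1.82 ± 0.54 for Nfs1. The ranges of Iscu and Isca2 overlapped in the cold, and no other neighbours did. The scaffold and desulfurase genes thus had fewer reads per length than the carrier gene Isca1 in every library.

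Genes with the most similar course over the 6 libraries were found by the root mean square difference of log2 CPM, each gene centred on its own mean. For Ftl1 the nearest was its copy Ftl1-ps1 (0.0599), with Gm9803 next (0.0920). For Fth1 they were Ptms (0.0876) and Mpc2, a subunit of the mitochondrial pyruvate carrier (0.0943), which fell by 0.71 on the log2 scale (adjusted p = 0.00368). Isca1 was nearest to Arf1, a small GTPase of vesicle traffic (0.0733), and Tcn2, the carrier of vitamin B12 in plasma (0.118). Isca2 was nearest to Hspbp1 (0.124) and Ccdc124 (0.128), and Nfs1 to Coq2, an enzyme of ubiquinone synthesis (0.144), and Tuba1b (0.149). Iscu was nearest to Rps27l (0.0337) and Mrpl20, a protein of the mitochondrial ribosome (0.0561). Glrx5 was nearest to Cidea, a lipid droplet protein of brown fat (0.0585), and to Sdhd, a subunit of succinate dehydrogenase (0.0615). The measure rests on 6 libraries that share depth and group, and it describes likeness of profile only.

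Other genes of iron, heme and iron-sulfur metabolism were taken from 6 lists with 91 annotated members. Reads were seen on 74 of them and 41 were tested, of which 8 were higher, 5 lower and 28 not called. This is 31.7% called, against 33.2% of all tested genes, and the median log2 change was -0.01 against 0.04. The groups did not overlap in 21 of the 41, against 47.8% of all tested genes. Without control 14, cold 4 or cold 11 the number called was 8, and without control 2 it was 16, so the count depended on single libraries.

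Genes of iron uptake, export and release were hardly seen in these libraries, and whether depth set this limit was not tested. Of 20 genes 2 were tested, and ferroportin (Slc40a1), hepcidin (Hamp), Heph, Steap1, Steap2, Slc39a14, Slc39a8, Slc25a28 and Ftmt had 0 reads in every library. Ncoa4, the receptor that brings ferritin to lysosomes, had 20 reads in all, too few to test. Pcbp2, a poly(C) binding protein that also acts as an iron chaperone, fell from 17.3 ± 6.32 to 7.94 ± 0.951 CPM (log2 change -1.13 ± 0.31, adjusted p = 0.0181). Its call was lost without control 14, cold 11 or cold 15 (log2 changes of -0.79, -1.06 and -1.08, adjusted p = 0.0891, 0.0614 and 0.0509). Pcbp1, a related chaperone for ferritin iron, was not called (log2 change -0.14 ± 0.22, adjusted p = 0.651). Of 7 genes of iron regulation only Nfe2l2 was tested, and it was not called (adjusted p = 0.255). Both iron regulatory proteins were out of reach, with 13 reads on Aco1 and 0 on Ireb2.

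Heme genes moved in both directions. Of 24, 11 were tested, 3 were higher and 2 lower, with a median log2 change of -0.01, where 18.1% of all tested genes were higher and 15.1% lower. Alas1, the first and rate-limiting enzyme of heme synthesis outside red cells, had 429, 769 and 740 CPM in control libraries against 1308, 1437 and 1178 in the cold, without overlap. Its mean rose from 646 ± 188 to 1308 ± 129 CPM (log2 change 1.02 ± 0.22, adjusted p = 0.00559). Slc25a39, a mitochondrial carrier of glutathione, rose from 619 ± 16.9 to 1111 ± 87.5 CPM (0.84 ± 0.16, adjusted p = 0.00217).

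Alad, which follows Alas1 in the pathway, fell from 99.5 ± 13.1 to 59.7 ± 5.18 CPM (log2 change -0.73 ± 0.21, adjusted p = 0.0196). That call was lost without cold 11 or cold 15 (-0.68 and -0.70, adjusted p = 0.0833 and 0.0593). On the side of breakdown, Blvrb, a biliverdin reductase, had 25.3, 23.5 and 30.5 CPM in control and 5.02, 3.3 and 2.30 CPM in cold libraries. Its mean fell from 26.5 ± 3.60 to 3.54 ± 1.38 CPM, the largest log2 change of the 41 tested genes in size, at -2.89 ± 0.32 (adjusted p = 1.00e-04). Hmox2, the constitutive heme oxygenase, rose from 7.68 ± 4.89 to 34.7 ± 5.35 CPM (2.06 ± 0.38, adjusted p = 0.00209). Its exons overlap Cdip1 on the opposite strand, a gene with 297 reads, and reads of the 2 may not be separable. Hmox1, the inducible heme oxygenase, had 25 reads in all and was not tested.

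Among other mitochondrial assembly genes 8 of 16 were tested and 0 were called by edgeR or by DESeq2, where 33.2% of all tested genes were called by edgeR. An unadjusted p under 0.05 was found for 3 of the 8, and the median log2 change was 0.29. Without control 2 the number called was 2, and with no filter on low counts it was 1. Bola3, Nfu1 and Hspa9, a late carrier pair and the chaperone of the scaffold, had cold values above all control values without a call (log2 changes of 0.61, 0.59 and 0.53, adjusted p = 0.0721, 0.0820 and 0.111). The groups thus did not overlap in 3 of the 8, against 47.8% of all tested genes. Lyrm4, a partner of the desulfurase, had 2 reads in all. Grpel1 and Ndufab1, at 867 and 1175 CPM in control libraries, changed by 0.02 and -0.05 on the log2 scale (adjusted p = 0.919 and 0.871).

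Cytosolic assembly showed 2 genes higher and 0 lower among 6 tested of 11, with a median log2 change of 0.56, where 33.2% of all tested genes were called. The number called was 0 by DESeq2, on either flow cell alone, after thinning to the smallest library total, and without control 9, control 14, cold 4 or cold 11. Ciao2a, a targeting factor of the cytosolic machinery, rose from 20.6 ± 4.13 to 35.9 ± 8.02 CPM (0.79 ± 0.27, adjusted p = 0.0407). Its call was lost without control 9, control 14, cold 4 or cold 11 (0.60 to 0.85, adjusted p = 0.0804 to 0.156). Glrx3, the cytosolic monothiol glutaredoxin, rose from 24.7 ± 4.06 to 39.9 ± 3.36 CPM (0.68 ± 0.23, adjusted p = 0.0447). Glrx3 was named after its value was seen, and its call was lost without any 1 library other than control 2 (0.54 to 0.74, adjusted p = 0.0634 to 0.161).

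Mitochondrial proteins that carry iron-sulfur clusters were all 13 tested, with 3 higher, 2 lower and a median log2 change of -0.13, where 18.1% of all tested genes were higher and 15.1% lower. The number called was 2 without cold 4, and 3 without control 9, control 14, cold 11 or cold 15 or with no filter on low counts. Cisd3, a mitoNEET family member of the matrix, had 517, 374 and 432 CPM in control and 127, 112 and 182 CPM in cold libraries and fell by 1.65 on the log2 scale (SE 0.24, adjusted p = 0.000466). Its relative Cisd2 rose from 7.37 ± 1.95 to 14.2 ± 1.82 CPM (0.89 ± 0.30, adjusted p = 0.0396), a call that was lost without each of the 6 libraries in turn (0.71 to 1.00, adjusted p = 0.0512 to 0.117). Cisd1, mitoNEET itself, was not called (-0.31 ± 0.18, adjusted p = 0.215). Etfdh, which passes electrons from fatty acid oxidation to ubiquinone, rose from 141 ± 50.9 to 280 ± 11.0 CPM (0.99 ± 0.25, adjusted p = 0.0121).

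Complex I subunits with clusters went both ways. Ndufs8 fell from 619 ± 13.6 to 383 ± 29.7 CPM (log2 change -0.69 ± 0.17, adjusted p = 0.00895), and without cold 4 its adjusted p was 0.0534 (-0.66). Ndufs7, which binds the neighbouring cluster, rose from 733 ± 159 to 1125 ± 97.9 CPM (0.62 ± 0.19, adjusted p = 0.0274). The Ndufs7 call was lost without any 1 library other than control 2 (0.49 to 0.66, adjusted p = 0.0554 to 0.114). Ndufs1, Ndufv1 and Ndufv2 were not called. Lias, which receives its clusters through the Isca1 and Isca2 carriers, changed by -0.02 ± 0.34 (adjusted p = 0.988), on 81 reads in all.

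**Figure D4:**
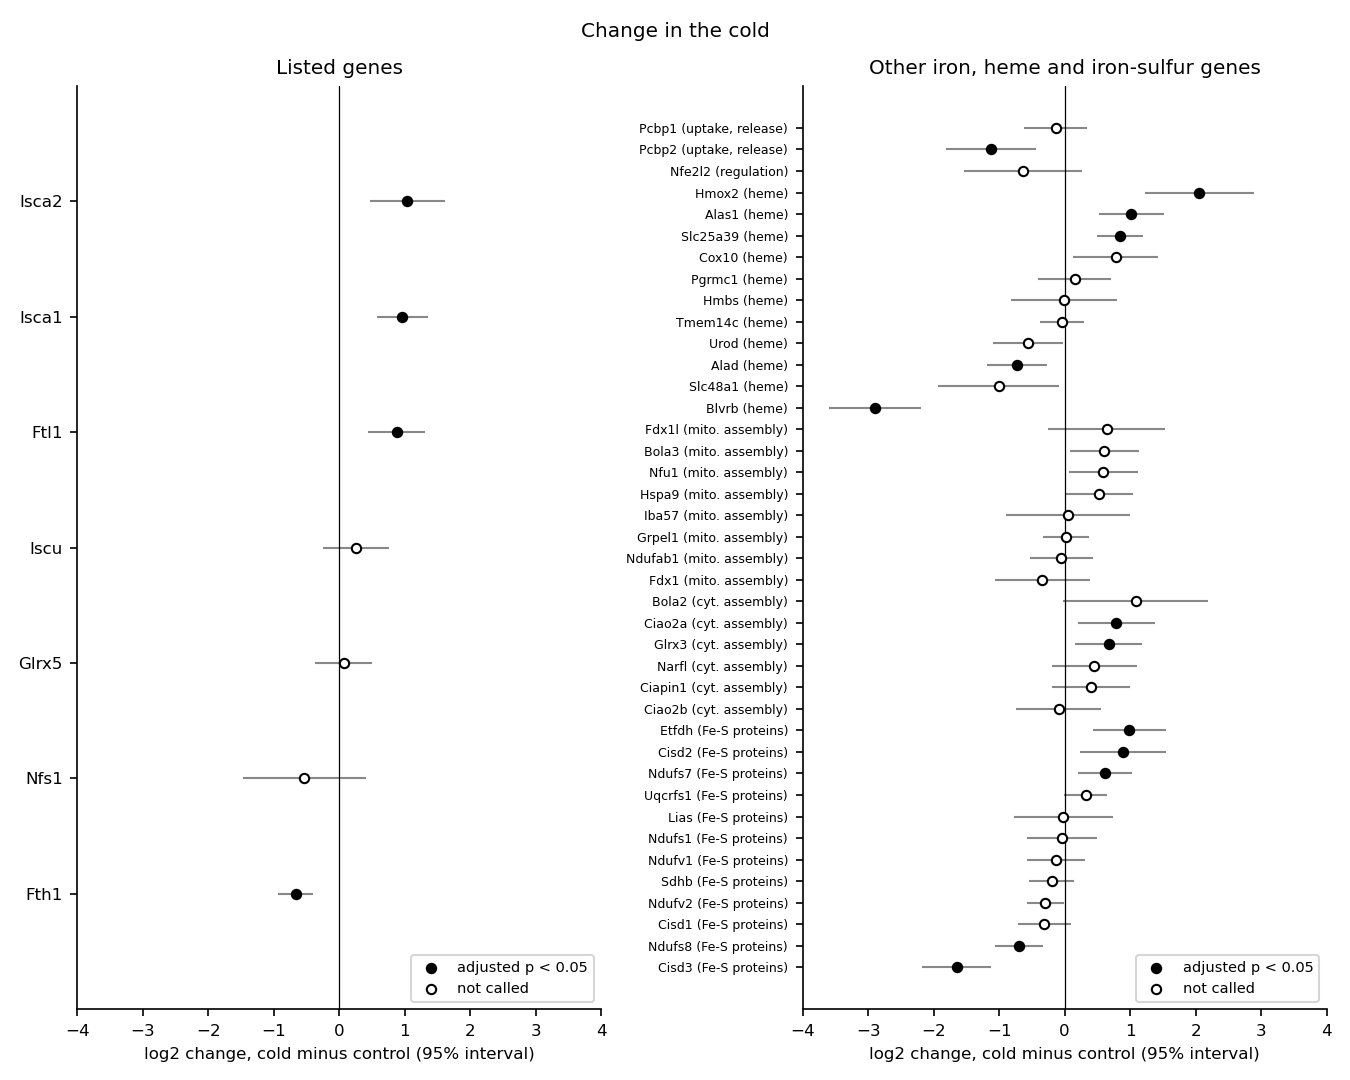
Log2 change, cold minus control, with its 95% interval for the 7 listed genes with reads (left) and for tested genes of the 6 pathway lists (right); filled points have an adjusted p under 0.05. Isca2, Isca1 and Ftl1 lie right of 0 and Fth1 left of it, and on the right Hmox2 is highest and Blvrb lowest.

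The calls of Fth1, Ftl1 and Isca1 held under all 14 alternative settings, at log2 changes of -0.74 to -0.55, 0.70 to 1.06 and 0.87 to 1.09. Isca2 ranged from 0.92 to 1.16. Iscu ran from -0.19 to 0.41 and Glrx5 from -0.06 to 0.19, both across 0. Nfs1 passed the filter in 8 settings and ranged from -0.84 without control 2 to -0.20 without control 14.

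**Figure D5:**
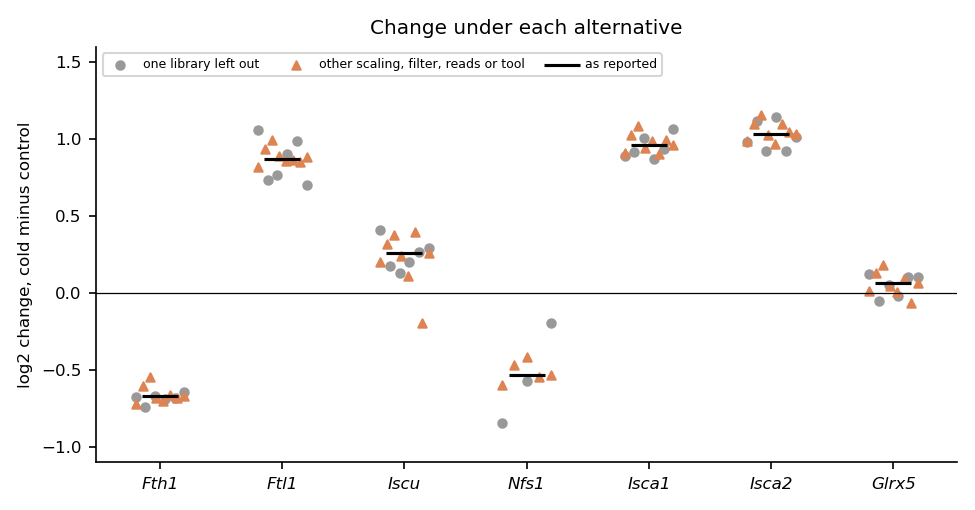
Log2 change, cold minus control, of each listed gene as reported (bars) and under each alternative: 1 library left out (circles) or another scaling, filter, set of reads or tool (triangles). Fth1 stays below 0 and Ftl1, Isca1 and Isca2 above it in every setting, and Iscu and Glrx5 cross 0.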

How the data were processed

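Nanopore reads of poly(A) RNA from 6 brown fat libraries (3 control, 3 cold), each run on 2 flow cells, were deposited as raw counts of reads per Ensembl transcript, without normalization by the authors. The submitters' processing notes name minimap2 and GRCm38; the quantification step was not given in sources used here. The labels' protocols name PCR and no molecular identifiers, so floors cover counting error only. Intervals come from the quasi-likelihood fit and also take in the spread between libraries. Transcripts not listed were taken as 0. Identifiers were matched to GENCODE M21 without their version; 22 of 14693 had no match, with no more than 0.00433% of the reads in any library.

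The test was that of edgeR 4.0.16 (R 4.3.3): filterByExpr at a minimum count of 10, scaling by trimmed mean of M-values, robust quasi-likelihood F test, Benjamini-Hochberg adjustment with calls under 0.05. The SE is the size of the log2 change over the square root of F, and intervals are at 95%. Transcript usage was tested with diffSpliceDGE. In counts simulated from these libraries for 2093 genes, 37 of 97 genes changed by 1 on the log2 scale and 94 of 94 changed by 2 were called, with 9 false calls among 140. Copies were sought with blastn 2.17.0 at 95% identity over at least 200 bases. Hairpins and motifs were sought by their letters. CPM per kilobase divides each transcript's CPM by its annotated length.

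The listed genes, pathway lists and marker lists were chosen with earlier results of these data known. The text names the listed genes, the 12 pathway genes with the smallest p among those called, and the 2 nearest profiles of each listed gene; other pathway genes serve as examples chosen after their values were seen. Alternatives were DESeq2 1.42.0, library totals, no filter, protein_coding transcripts alone, each flow cell, thinning to the smallest total, and leaving out each library. Some genes of the lists are counted but not reported by name here.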

Additional observations from a re-analysis of the deposited data

How the results depend on the processing

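Of 2093 tested genes 695 were called, and 444 after thinning to the smallest library total, which leaves fewer reads and 1537 tested genes. Iscu changed sign after thinning (log2 change -0.19), as did Glrx5 (-0.064); Glrx5 also did so without control 9 (-0.052) and without cold 4 (-0.021). None of these was called. Isca2 after thinning had a log2 change of 1.05 at an adjusted p of 0.0512. Leaving out 1 library gave 8 to 16 called pathway genes against 13, and 2 to 6 genes called for transcript usage against 9, the fewest without control 9 or control 14. Without the filter 3 genes were called for usage; among the listed genes usage was called in 0 of 4 in every setting. Without the filter the log2 changes of genes shared with the reported fit moved by 0.12 at the median. Pcbp2, Alad, Ndufs7, Ndufs8, Cisd2, Ciao2a and Glrx3 lost their call in at least 1 setting, and none of the 13 called pathway genes changed sign; the uncalled ones were not followed gene by gene. Nfs1 could not be tested on either flow cell alone, after thinning or without any 1 of the cold libraries, where it fell below the filter. No paired analysis was possible because the groups share no mouse number. Every cold library was deeper than every control library, so genes with few reads, Nfs1, Isca2 and Iscu among those listed, are the least certain, and Tfrc could not be measured.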
